A study of Mus musculus with 16 samples.

Results

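Wild type (WT) mouse embryonic stem cells (ESCs) that were turning into anterior neural progenitor cells (antNPCs) were compared between day 3 and day 2 of the culture. The comparison used 4 of the 16 ATAC-seq libraries of the series, those of the WT lines WT70 and WT72, each sampled on both days. ATAC-seq cuts DNA with a transposase wherever chromatin is accessible, and a peak is a stretch with more cuts than its surroundings. In each library the 50000 distinct intervals with the highest −log10 p were kept. A region was called gained when kept intervals overlapped it in both day 3 libraries and in neither day 2 library, and lost in the reverse case. Of 80565 consensus regions of the series, 65708 were open in at least 1 of the 4 libraries. Of these, 2786 (4.24%) were gained and 3188 (4.85%) were lost.

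All lines carried the hybrid B6 × 129S6 background of the Tet1 tm1Koh strain. The cells were grown on feeders, separated from them, plated in N2B27 medium with bFGF and given no inhibitor in the WT groups of either day. In the protocol, the medium was changed on day 3 to one without bFGF. Whether the day 3 cells were taken before or after that change was not established. The other libraries did not enter the rule and were read over the same regions. They came from lines with catalytically inactive Tet1 (MUT, lines CM59 and CM69) and Tet1 knockout lines (KO, lines KO1 and KO15), each on day 3 and on day 2. The remaining 2 groups were WT cells labelled WT7 and WT34 on day 3 with the Wnt activator CHIR99021 (CHIR), and KO1 and KO15 cells on day 3 with the Wnt inhibitor XAV939 (XAV). The MUT lines are clones of WT7, so they are not independent of each other in origin. Whether WT70 and WT72 also derive from WT7 could not be established, so the MUT lines may share a parent with the lines that chose the regions. Each group held 2 libraries, 1 per line, and the same lines were sampled on both days. The deposited lists of WT72, CM69 and KO15 on day 2 are marked as merged, without a statement of what was merged, and no day 3 list is, so merging goes with day in those lines and its part in the results was not tested.

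Mouse ESCs in culture resemble the epiblast of the embryo before or soon after implantation. As they leave the naive state, enhancers used by factors such as PRDM14, KLF4, KLF5 and NR5A2 close, a formative state with de novo DNA methylation by DNMT3A and DNMT3L follows, and neural or primitive streak enhancers open later. Enhancers are mostly distal to genes and are read by transcription factors that bind short motifs. AP-1 is a dimer of JUN and FOS family proteins that acts downstream of ERK signalling and stress, TEAD proteins are the DNA-binding partners of YAP and TAZ, and CTCF marks loop anchors and insulators.

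The regions below are examples of gained and lost regions at the level of sequence and do not represent the sets. Every gained region printed has an AP-1 or TEAD match, against 35.5% of all gained regions. Both matches together were in 3.09% of gained regions. Each is the 151 bases around the summit, read 5′ to 3′ from the plus strand of mm10 (GRCm38.p6), and capitals mark matches to the AP-1, TEAD, KLF, NFY or CTCF motif on either strand. The first pair are gained regions with both an AP-1 and a TEAD match, named for the nearest gene: Arhgef18 at chr8:3418227-3418377 and Rhbdd1 at chr1:82429231-82429381, both intronic. They were chosen after their values were seen. Krt18 at chr15:102045656-102045806, Ctnnb1 at chr9:120906576-120906726 and Col1a1 at chr11:94916584-94916734 are gained intergenic regions near list genes. Prdm14 at chr1:13078349-13078499, in an intron, and Nr5a2 at chr1:137013529-137013679, intergenic, are lost regions near naive pluripotency genes. Dppa4 at chr16:48233923-48234073, intergenic, had lower peaks on day 3 without passing the rule for lost. Windows that overlapped an annotated exon are not shown.
Arhgef18: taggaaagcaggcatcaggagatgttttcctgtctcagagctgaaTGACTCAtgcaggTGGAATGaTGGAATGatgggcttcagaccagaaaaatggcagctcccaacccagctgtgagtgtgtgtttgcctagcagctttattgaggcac
Rhbdd1: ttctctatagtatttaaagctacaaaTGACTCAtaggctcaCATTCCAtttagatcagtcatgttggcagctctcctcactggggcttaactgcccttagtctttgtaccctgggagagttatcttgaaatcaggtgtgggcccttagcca
Krt18: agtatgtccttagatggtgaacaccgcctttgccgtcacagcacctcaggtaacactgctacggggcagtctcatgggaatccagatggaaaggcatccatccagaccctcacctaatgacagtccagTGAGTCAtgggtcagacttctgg
Ctnnb1: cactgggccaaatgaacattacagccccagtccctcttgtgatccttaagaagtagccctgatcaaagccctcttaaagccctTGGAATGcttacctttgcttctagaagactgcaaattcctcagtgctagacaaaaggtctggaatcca
Col1a1: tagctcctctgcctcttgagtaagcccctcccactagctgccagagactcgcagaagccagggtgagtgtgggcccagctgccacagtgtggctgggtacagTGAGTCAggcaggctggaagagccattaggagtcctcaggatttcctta
Prdm14: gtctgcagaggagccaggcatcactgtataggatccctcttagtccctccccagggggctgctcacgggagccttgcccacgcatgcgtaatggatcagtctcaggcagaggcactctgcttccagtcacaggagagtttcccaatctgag
Nr5a2: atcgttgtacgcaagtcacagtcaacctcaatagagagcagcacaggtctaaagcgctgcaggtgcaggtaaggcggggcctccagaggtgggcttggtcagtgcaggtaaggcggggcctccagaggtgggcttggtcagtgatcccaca
Dppa4: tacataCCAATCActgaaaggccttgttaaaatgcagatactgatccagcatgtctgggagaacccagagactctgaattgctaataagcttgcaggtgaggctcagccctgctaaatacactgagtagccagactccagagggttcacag

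The fold enrichment of a peak over its local background is given throughout in the order WT70, WT72. The Arhgef18 region had 6.36 and 6.28 on day 3, against 4.33 and 4.15 on day 2. The Rhbdd1 region had 8.11 and 8.72 on day 3, against 5.02 and 3.74 on day 2. In both, the days did not overlap, and the day 2 libraries still had a peak of lower rank.

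With 50000 intervals kept per library, more regions differed between the days than between the lines. The 4 libraries can be paired by day, by line or crossed, and only the pairing by day gave more than 1203 regions on either side. Against the 2786 gained and 3188 lost regions, 1203 were open only in both WT70 libraries and 727 only in both WT72 libraries. The crossed pairings gave 700 regions open only in WT70 day 3 and WT72 day 2, and 882 open only in the other pair. The smallest p of an exact test at this size is 0.333, so no p is given for these counts. With every peak of −log10 q of at least 2 kept, 3038 regions were gained and 15467 lost, against 6515 open only in both WT70 libraries and 1080 only in both WT72 libraries, and 1598 and 3318 in the crossed pairings, so that the gained count no longer stood above the mixed ones. Within WT70, 7357 regions opened and 8181 closed between the days, of which 37.9% and 39.0% did so in WT72 too. Within WT72, 8941 opened and 8768 closed, with 31.2% and 36.4% shared. Covered bases overlapped most between libraries of a day, with a Jaccard index of 0.703 on day 3 and 0.711 on day 2, against 0.689 between the days of WT70 and 0.656 between those of WT72.

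**Figure D1:**
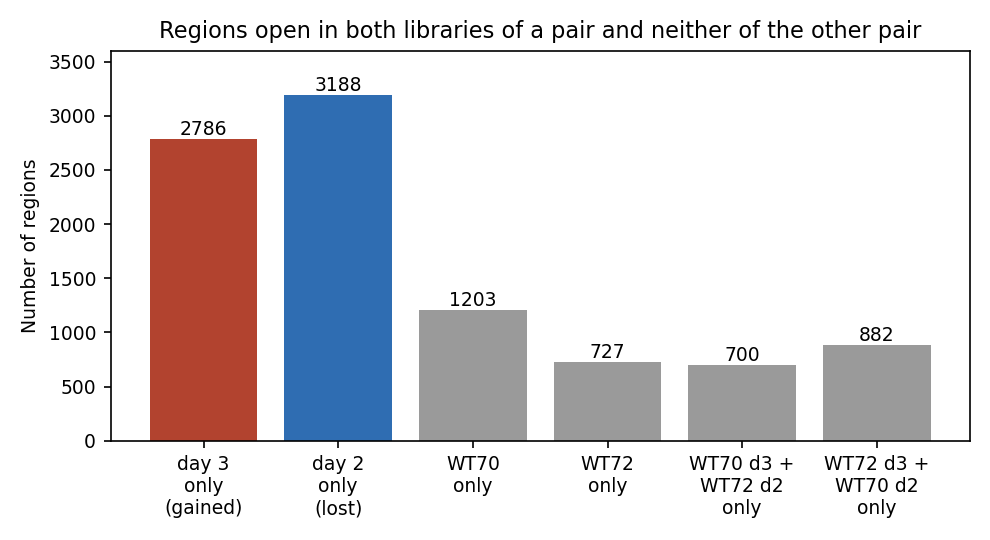
Number of consensus regions (vertical axis) open in both libraries of a pair and in neither library of the other pair. The bars for day 3 only (2786) and day 2 only (3188) stand above all mixed pairings, which lie between 700 and 1203.

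Nearly all of these changes were changes of rank and not the appearance or disappearance of a peak. Of the gained regions, 26 (0.9%) had no deposited peak of any rank in either day 2 library. Of the lost regions, 74 (2.3%) had none in either day 3 library. The median gained region ranked 43524 in its weaker day 3 library and 59868 in its better day 2 library. For lost regions the medians were 60914 in the better day 3 library and 42840 in the weaker day 2 library. At the threshold, 305 gained and 289 lost regions ranked between 45001 and 50000 in the weaker library of their own day and within 55000 in the better library of the other day. A gained intergenic region near Gata3, a surface ectoderm and trophoblast factor, was such a case, with 6.04 and 5.9 on day 3, against 5.75 and 6.15 on day 2. Its folds overlapped between the days. Well inside it, 440 gained and 549 lost regions ranked within 40000 on their own day and beyond 60000 on the other. The summit of the peak lay inside the region in both libraries for 96.6% of gained and 96.3% of lost regions. Of the 20 strongest gained regions this held for 8, and of the 20 strongest lost regions for 16, so some of the strongest calls are shoulders of wide peaks. In a bulk library, fewer cells with an open region and less accessibility per cell cannot be told apart.

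The lists differed in strength between the days. The WT libraries held 182414 and 170543 peaks on day 3, against 227499 and 192975 on day 2, and the −log10 p at rank 50000 was 12.6 and 9.75 on day 3, against 18.3 and 13.9 on day 2. Over all 16 libraries these values ranged from 161449 to 276451 and from 6.84 to 21.8. Keeping a fixed number of intervals removes the difference in length of the lists, and what else follows from the unequal strength was not tested. A region could be gained in rank at a like or lower −log10 p. A gained region near Foxc1 had a −log10 p of 12.9 and 14.3 on day 3, against 15.2 and 11.8 on day 2. The libraries carried open promoters of pluripotent and neural progenitor genes on both days. Within 1 kb of the TSS, 14 and 14 of 18 naive genes were open on day 3, against 14 and 15 on day 2, all 20 formative genes on day 3, against 19 and 20 on day 2, and 28 and 29 of 30 anterior neuroectoderm genes on day 3, against 28 and 28 on day 2. Markers of other cells had open promoters on both days too. These were 8 of 13 fibroblast genes in all 4 libraries, and 6 and 5 of 12 trophoblast genes on day 3, against 5 and 6 on day 2. Blood and endothelium had 5 and 5 of 10 genes on day 3, against 5 and 4 on day 2. Definitive endoderm had 10 and 10 of 14 genes on day 3, against 12 and 11 on day 2. Mesoderm had 14 and 16 of 20 on day 3, against 12 and 15 on day 2. Extraembryonic endoderm had 8 and 8 of 12 on day 3, against 9 and 9 on day 2. The formative and anterior neuroectoderm lists had a larger share of genes with open promoters than each of these lists. The naive list did not. Open promoters do not show expression.

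Gained and lost regions were mostly distal. More than 3 kb from every annotated TSS lay 71.7% of gained and 68.9% of lost regions, against 54.0% of all regions open in the WT libraries and 42.6% of those open in all 4. Within 1 kb of a TSS lay 17.4% of gained and 19.3% of lost regions, against 49.5% of regions open in all 4. Introns held 48.7% of gained and 43.3% of lost regions, and exons 8.8% and 17.8%. Of gained regions 11% had 10 or more CpGs within 301 bp, against 22.5% of lost regions and 49.1% of those open in all 4, and the median GC content was 51.2%, 52.5% and 57.1% in the same order. With 30000 intervals kept, the mean distal share of the WT libraries was 40.5% on day 3 and 41.5% on day 2. With 75000 kept it was 57.5% and 57.2%. The distal share thus depended on rank, and the sets were not compared with unchanged regions of like rank. By chromosome, the gained share ran from 2.93% on X to 5.21% on chromosome 1, and the lost share from 3.8% on X to 5.93% on chromosome 18, leaving out Y with 21 regions and no call.

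AP-1 and TEAD motifs were more frequent in gained regions than in lost regions or in all open regions. AP-1 (TGANTCA) was found in 24.8% of gained regions, 9.6% of lost regions and 11.6% of all regions open in the WT libraries. TEAD (CATTCCA) was found in 13.8% of gained, 4.08% of lost and 5.62% of all regions. Both motifs together occurred in 86 gained regions (3.09%), 16 lost regions (0.502%) and 567 of all regions (0.863%). Among distal regions alone AP-1 had 27.3% of gained and 10.3% of lost regions, against 15.1% of all and 13.1% of those open in all 4. TEAD had 15.7% and 4.33%, against 7.12% and 6.64%, so both gaps were present away from promoters too. These shares describe the sets, which were formed from the same libraries, and carry no test.

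CTCF, MEIS/TGIF (TGACAG) and the homeobox core (TAATTA) were also more frequent in gained than in lost regions. CTCF sites were in 7.32% of gained and 2.26% of lost regions against 6.04% of all, so the low share in lost regions makes most of that gap. Among distal regions CTCF had 7.26% of gained and 2.55% of lost regions against 7.95% of all, so gained regions were not above all regions there. MEIS/TGIF sites were in 25.3%, 18.7% and 20%, and TAATTA in 5.56%, 3.39% and 3.76%. The reverse held for KLF (GGGNGTGG), bound by the naive factors KLF2, KLF4 and KLF5, with 13.8%, 19.4% and 18.5%, and for NFY (CCAATCA), a promoter factor, with 3.88%, 6.02% and 6.41%. Of other motifs, SOX (CATTGT) had 14.3% in both against 11.8% of all, OCT (ATGCAAAT) 2.76% and 3.23% against 2.83%, and ZIC (CCTGCTG) 20.6% and 22.1% against 20.6%. Among distal regions OCT had 2.6% of gained and 3.83% of lost regions. The ESRRB motif was rare, with 12 gained regions (0.431%) and 20 lost regions (0.627%). TCF/LEF (CTTTGAT), the motif of Wnt effectors, had 3.84% and 3.64% against 3.68%. Among distal regions SOX had 15.4% and 15.6% against 14.8% of all, ZIC 21.3% and 23% against 23.9%, and TCF/LEF 3.96% and 3.74% against 4.65%. Both strands were searched over 301 bp around the summit, and matches of different motifs could overlap.

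A test with replicates needed more libraries than WT alone, so the share of kept intervals with each motif was compared between the 6 untreated libraries of day 3 and the 6 of day 2 (WT, MUT and KO). The WT libraries among them also chose the gained and lost regions, so the test is not independent of those sets. The MUT and KO libraries alone were not tested. Over 28 features (26 motifs, distal share and GC), 5 passed an adjusted p of 0.05 in the two-sided exact permutation test, each with the same direction in 6 of 6 lines. AP-1 was found in 10.7% and 12.8% of WT intervals on day 3, against 9.6% and 9.72% on day 2. In MUT libraries it was 13.5% and 12.6% on day 3, against 10.3% and 9.89% on day 2, and in KO libraries 11% and 10.8% on day 3, against 9.6% and 9.24% on day 2. The days did not overlap, and the mean was 11.9% ± 1.21 on day 3 and 9.72% ± 0.343 on day 2 (SD, n = 6 each), with an exact adjusted p of 0.0152.

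TEAD was found in 5.92% and 5.86% of WT intervals on day 3, against 4.86% and 4.81% on day 2, and over all 6 lines the share was 5.61% ± 0.443 on day 3 and 4.82% ± 0.097 on day 2 (SD, n = 6 each, exact adjusted p = 0.0152). MEIS/TGIF rose by 0.947 points (19.8% and 20.1% in WT on day 3, against 19.4% and 19.4% on day 2) and CTCF by 0.568 points (6.58% and 6.49%, against 5.87% and 5.62%), both with an exact adjusted p of 0.0152. NFY fell by 0.394 points (6.96% and 6.68% in WT on day 3, against 7.28% and 6.85% on day 2, exact adjusted p = 0.0242). With day 3 and day 2 paired by line, no feature passed, since 6 lines allow no exact sign-flip p under 0.0312 and the adjusted p of these 5 was then 0.0972. With 75000 intervals kept, CTCF no longer passed (0.186 points, adjusted p = 0.198 in the same exact test). KLF had 18.6% ± 0.151 on day 3 and 18.9% ± 0.283 on day 2 (SD, n = 6 each) and did not pass, with an exact adjusted p of 0.0808. With 100 bp on either side of the summit it passed, with a lower share on day 3 in 6 of 6 lines (−0.386 points, exact adjusted p = 0.0121), while with 30000 and 75000 intervals kept its adjusted p in the same exact test was 0.294 and 0.111.

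**Figure D2:**
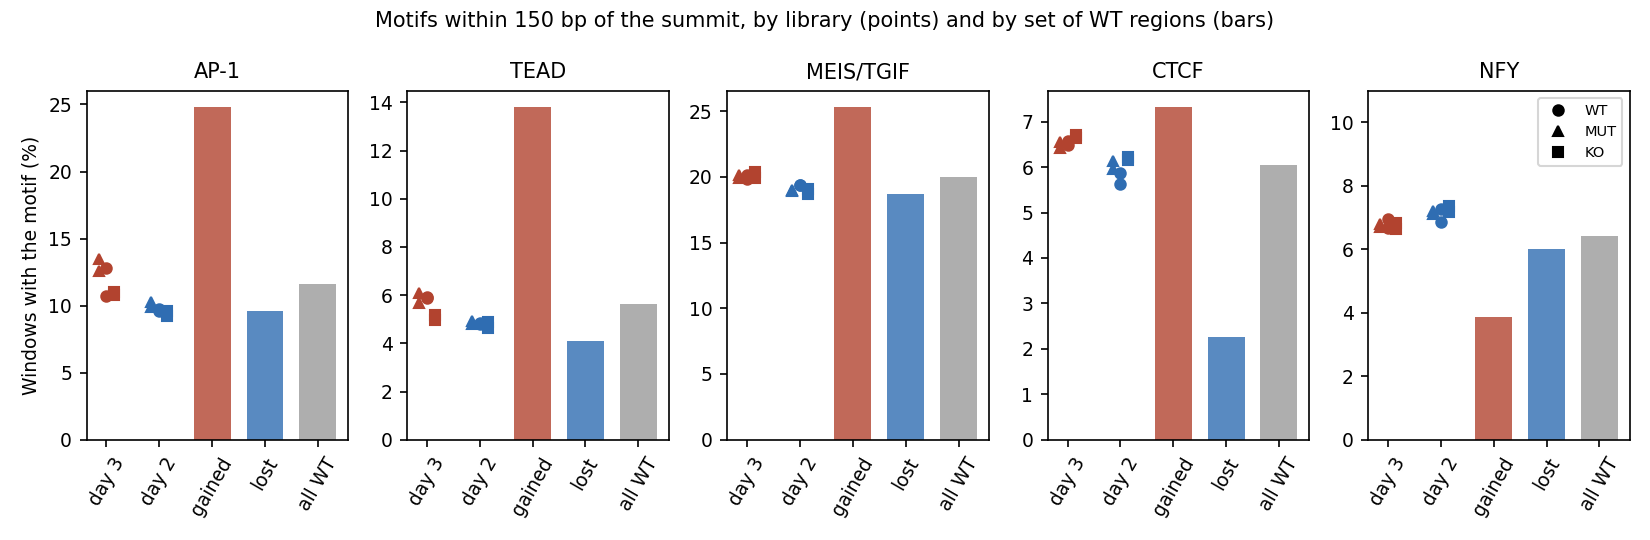
Share of 301 bp windows with a motif (vertical axes, %) for the 5 motifs that passed the test. Points are libraries (circles WT, triangles MUT, squares KO), and bars are the gained, lost and all open regions of WT. For AP-1 the points reach 13.5% on day 3 and 10.3% on day 2, while gained regions stand at 24.8%.

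The same regions moved in the MUT and KO libraries, which had no part in choosing them. In MUT libraries, 68.4% and 62.7% of the gained regions were open on day 3, against 27.0% and 22.1% on day 2. In KO libraries, 51.2% and 48.7% were open on day 3, against 22.3% and 19.6% on day 2. Over the 4 lines the share was 57.8% ± 9.38 on day 3 and 22.8% ± 3.11 on day 2 (SD, n = 4 each), a difference of 35 points with an exact permutation adjusted p of 0.0286, the smallest that 4 against 4 allows. The differences by line were 41.4 and 40.6 points in MUT and 28.9 and 29.1 points in KO. Paired by line, the exact sign-flip p was 0.125, the smallest that 4 lines allow.

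Of the lost regions, 21.5% and 27.5% were open in MUT libraries on day 3, against 70.3% and 71.1% on day 2, and 23.2% and 23.3% in KO libraries on day 3, against 73.4% and 67.8% on day 2. The share was 23.9% ± 2.56 on day 3 and 70.7% ± 2.29 on day 2 (SD, n = 4 each), a difference of −46.8 points with an exact permutation adjusted p of 0.0286, and paired by line 0.125. Day 3 and day 2 libraries did not overlap in either set. With every peak of −log10 q of at least 2 in place of a fixed number, the differences were 23.4 and −43.1 points and no longer passed (exact adjusted p = 0.143 and 0.0571).

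**Figure D3:**
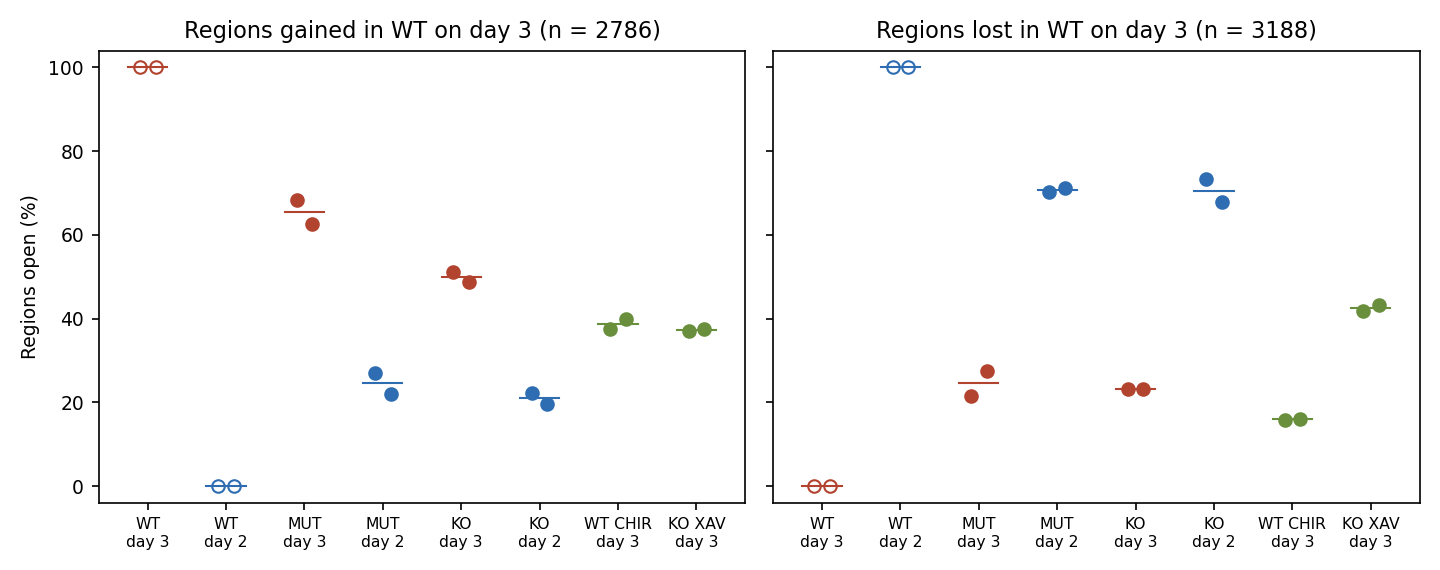
Share of regions gained (left) and lost (right) in WT that were open in each library (vertical axis, %), by group. Filled points are libraries that did not define the regions, open points the WT libraries that did (100% or 0% by the rule), and lines the group means. Gained regions lie at 48.7% to 68.4% in MUT and KO libraries on day 3 and at 19.6% to 27.0% on day 2.

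Fewer regions passed the full rule in several genotypes. The rule gave 3162 gained and 3616 lost regions in MUT, and 811 of those gained in WT (29.1% of WT, 25.6% of MUT) and 1045 of those lost (32.8% of WT, 28.9% of MUT) were shared. In KO it gave 4162 gained and 5163 lost, with 523 gained (18.8% of WT, 12.6% of KO) and 1146 lost regions (35.9% of WT, 22.2% of KO) shared. Over all 65708 regions open in the WT libraries, 3.93% were gained and 4.87% lost in MUT, and 3.45% were gained and 6.87% lost in KO. The opposite call was made in MUT for 36 of the regions gained in WT (1.29%) and 22 of those lost (0.69%), and in KO for 45 (1.62%) and 32 (1%). Gained in all 3 genotypes were 242 regions (8.7% of those of WT), and lost in all 3 were 604 (18.9%). Open in no MUT or KO library of day 3 were 341 gained regions (12.2%), and open in no MUT or KO library of day 2 were 221 lost regions (6.9%).

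Under Wnt manipulation on day 3 the gained regions were open in 37.5% and 39.9% with CHIR (WT7, WT34) and in 37.1% and 37.4% with XAV (KO1, KO15). Lost regions were open in 15.8% and 16% with CHIR and in 41.9% and 43.2% with XAV. The CHIR cells carry other line labels than the untreated WT cells, so line and treatment cannot be told apart there. Gained regions with an AP-1 motif (690) were open in 81.7% and 72.3% of cases in MUT and 53.6% and 47.8% in KO on day 3, and in 22.3% and 17.5% in MUT and 14.9% and 12.3% in KO on day 2. In XAV libraries they were open in 20.6% and 19.1%, against 42.5% and 43.4% of the 2096 gained regions without the motif. In CHIR libraries the shares were 26.8% and 36.7% with the motif, against 41% and 41% without it. Of the 385 gained regions with a TEAD motif, 20.5% and 18.2% were open in XAV libraries, against 39.7% and 40.4% of the 2401 without it. In CHIR libraries the TEAD shares were 23.9% and 24.9%, against 39.7% and 42.3% without it. These subsets were chosen after their values were seen and were not tested.

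By height of the peaks, limma was run on the log2 fold enrichment of 69985 regions with a peak in all 4 libraries. Peaks were higher on day 3 in 237 regions (0.339%) and lower in 443 (0.633%) at an adjusted p of 0.05, out of 4542 and 6310 at an unadjusted p of 0.05. With line as a term, 0 and 0 passed (5049 and 6827 at an unadjusted p of 0.05), with a smallest adjusted p of 0.0787. The limma adjusted p-values given below for single regions are from the fit without line. None of these regions passed with line as a term. Without WT70 day 2 (3581 and 3555 at an unadjusted p of 0.05) or without WT72 day 2 (2557 and 4053), 0 and 0 passed. Without WT70 day 3, 552 and 1611 passed, and without WT72 day 3, 130 and 417. Of the 237 higher regions, 182 were gained and 71.3% were distal, with a median log2 change of 1.15. Of the 443 lower regions, 261 were lost and 71.1% were distal, with a median of −1.06. Since the rule used the same libraries, this is the same change read on another scale.

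The largest rise with its summit inside the region was at the start site of Ankrd1, a target gene of YAP and TEAD, at chr19:36119877-36120239. It had 11 and 8.46 on day 3, against 3.07 and 3.4 on day 2 (log2 1.66 ± 0.22 SE, limma adjusted p = 0.0211). An exonic region of Mfn2, a mitochondrial fusion gene, had 10.5 and 6.32 on day 3, against 2.87 and 2.82 on day 2 (log2 1.59 ± 0.24 SE). Larger or like values at Zfp809, Tex50 and Znrf4 (log2 1.89, 1.73 and 1.57) came from peaks whose summit lay outside the region. Among lower regions, the start site of Rnf212, a meiotic crossover gene, had 3.46 and 3.33 on day 3, against 11.6 and 12.6 on day 2 (log2 −1.75 ± 0.2 SE). A region near the start of a Chd3 transcript, a nucleosome remodeller of the NuRD complex, had 2.64 and 2.49 on day 3, against 8.97 and 8.22 on day 2 (log2 −1.67 ± 0.22 SE). Nr0b2 (SHP, a nuclear corepressor) had at its start site 3.66 and 2.81 on day 3, against 9.15 and 11.1 on day 2 (log2 −1.57 ± 0.22 SE). An intergenic region near Olfr1350 (log2 −1.61) and one with no gene within 100 kb at chr10:52545568-52545934 (log2 −1.81) made up the 5 largest falls.

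Genes of the lists below had 14 regions past the limma threshold, 7 higher and 7 lower. Beside those described with their lists, Onecut2 and Pax8 were higher (log2 1.1 and 1.18), and Bmpr1a, Cdh2, Neurog1 and Pgk1 were lower (log2 −0.76, −0.91, −0.98 and −1.19). By −log10 p the strongest gained regions lay at Zfp809, Znrf4, Dcaf6, Zfp787 and Ccdc102a, all with the summit outside. The strongest lost regions lay at Slc24a2, Npm2, Fez1, Amdhd1 and 1700028K03Rik, with the summit inside at the last 2. At Amdhd1, a histidine catabolism gene, the exonic region had 5.19 and 5.0 on day 3, against 12.3 and 13.7 on day 2.

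Of 16962 genes with a consensus region within 100 kb, 2075 (12.2%) had a gained region and 2365 (13.9%) a lost one, and 443 had both. Over all regions assigned to genes, 4.1% were gained and 4.65% lost, which is the background for the gene lists that follow. The median gene had 2 regions, against 4.5 in the naive list, 6 in the FGF and ERK list and 7.5 in the neural crest and surface ectoderm list. Counts of list genes with a call are therefore not like the 12.2% and 13.9% of all genes, and the shares of regions are the comparison.

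Naive pluripotency genes carried the largest lost share of the pluripotency lists. Of their 92 regions 10 were lost (10.9%) and 4 gained (4.35%), and 8 of 18 genes had a lost region: Prdm14, Dppa5a, Fgf4, Klf2, Klf4, Klf5, Nr5a2 and Tdh. The gained regions were at Tbx3, Esrrb and Tdh. Prdm14, a repressor of FGF signalling and DNA methylation in naive cells, lost 3 of 7 regions. Its strongest, the region printed above and 48732 bp from the start site, had 4.56 and 5.05 on day 3, against 7.02 and 8.87 on day 2. The start site of Tdh, threonine dehydrogenase of naive ESC metabolism, had 5.18 and 4.05 on day 3, against 5.74 and 9.75 on day 2. The days did not overlap in either, but at Tdh the gap was mostly in WT72. Nr5a2, a nuclear receptor that sustains Pou5f1 expression, had 4.5 and 4.33 on day 3, against 9.88 and 9.12 on day 2 (limma log2 −1.0 ± 0.2 SE, adjusted p = 0.0444). Tbx3, another naive factor, had 2 gained regions, whose strongest had 8.9 and 6.15 on day 3, against 6.47 and 4.39 on day 2, with overlapping values. Esrrb gained 1 of 14 regions, with 7.38 and 5.26 on day 3, against 3.78 and 5.13 on day 2. Beside its lost region, Tdh gained 1 of 5.

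Core pluripotency genes lost 7 of 86 regions (8.14%) and gained 1 (1.16%), and formative and primed genes lost 9 of 142 (6.34%) and gained 3 (2.11%). Foxp1 and Zfp281, regulators of pluripotency and its exit, lost 2 regions each, and the strongest of Zfp281 had 5.54 and 5.0 on day 3, against 8.45 and 8.81 on day 2. An exonic region of Sox2, 652 bp from the start site, had 3.09 and 3.15 on day 3, against 3.68 and 4.23 on day 2, a small difference. An intronic region of Tcf3, an E protein gene, had 3.22 and 3.13 on day 3, against 4.73 and 5.85 on day 2. Near Dppa4, a chromatin protein of pluripotent cells, the region printed above had 6.92 and 3.67 on day 3, against 12.1 and 13.3 on day 2 (limma log2 −1.24 ± 0.22 SE, adjusted p = 0.0312). Grhl2, an epithelial enhancer factor of the formative state, went both ways, with 3 lost and 1 gained of 19 regions. Its gained region had 9.36 and 7.47 on day 3, against 5.4 and 6.02 on day 2, and its strongest lost one 5.14 and 2.82 on day 3, against 6.14 and 8.51 on day 2. Sall2, a zinc finger gene, had 3.71 and 3.93 on day 3, against 4.51 and 5.14 on day 2, in an exonic region near a start site. Lin28a, an RNA-binding protein that blocks let-7, had a gained region near its start site with 4.04 and 3.82 on day 3, against 2.86 and 3.5 on day 2.

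Of 50 regions of DNA methylation genes 3 were lost (6%) and 0 gained, a lost share near that of all genes. The lost regions were at Dnmt3a (2 of 17) and Dnmt3l (1 of 1), while Dnmt3b lost 0 of 5. The start site of Dnmt3l, the cofactor of DNMT3A and DNMT3B, had 4.65 and no peak on day 3, against 5.98 and 10.3 on day 2, and was open in no MUT or KO library of day 3 and in all 4 of day 2. The stronger of 2 lost intronic regions of Dnmt3a had 4.8 and 3.61 on day 3, against 5.91 and 6.9 on day 2.

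Genes of FGF and ERK signalling lost 11 of 146 regions (7.53%) and gained 5 (3.42%), and 10 of 21 genes had a lost region: Spry2, Dusp5, Etv5, Fgf17, Fgf4, Fgfr1, Fgfr2, Fgfr3, Spred2 and Spry4. Among ligands, Fgf4, the main autocrine FGF of ESCs, had 2.69 and 3.52 on day 3, against 4.26 and 4.97 on day 2. Among receptors, an exonic Fgfr3 region near the start site had 3.12 and 2.92 on day 3, against 5.13 and 6.9 on day 2, while Fgfr2 gained 2 regions, the strongest with 7.0 and 7.45 on day 3, against 4.61 and 4.91 on day 2. Among the inhibitors, Spry2 lost 2 of 12 regions, and 1 of them had 4.85 and 2.33 on day 3, against 9.0 and 7.14 on day 2.

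Nodal genes gained 4 and lost 5 of 72 regions (5.56% and 6.94%), Wnt genes gained 7 and lost 7 of 160 (4.38% each), BMP genes gained 5 and lost 4 of 94 (5.32% and 4.26%) and Notch genes gained 2 and lost 3 of 83 (2.41% and 3.61%). The start site of Lefty2, a secreted Nodal inhibitor and target, had 3.93 and 4.26 on day 3, against 6.77 and 7.38 on day 2. Upstream of Smad2, the effector of Nodal, an intergenic region had 9.13 and 7.51 on day 3, against 3.29 and 3.71 on day 2 (limma log2 1.34 ± 0.22 SE, adjusted p = 0.0274). The inhibitor Smad7 had 2 gained and 3 lost of 19 regions, 2 of the lost ones from the same day 2 peak.

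In the Wnt list, the region near Ctnnb1 (β-catenin) printed above had 6.55 and 6.56 on day 3, against 3.28 and 3.39 on day 2 (limma log2 1.07 ± 0.22 SE, adjusted p = 0.0483). The Ctnnb1 region was open in 1 MUT library of day 3 and in no other MUT, KO, CHIR or XAV library. Tcf7l2, a nuclear effector, had 2 gained and 2 lost of 13 regions, and Fzd10, a receptor, lost 2 of 6. In the BMP list, the ligand gene Bmp4 had a gained region 46300 bp upstream with 8.79 and 8.31 on day 3, against 4.61 and 3.74 on day 2 (limma log2 1.14 ± 0.22 SE, adjusted p = 0.0384). A lost one at its start site had 3.35 and 2.52 on day 3, against 3.84 and 4.42 on day 2. The gained Bmp4 region was open in all MUT and KO libraries of day 3 and in none of day 2. The lost Bmp4 region was open in no MUT or KO library of either day. The effector Smad1 gained 2 of 6 regions and the inhibitor Smad6 lost 2 of 19. Near the start site of the Notch ligand gene Dll1, a region had no peak in either library on day 3, against 6.25 and 7.05 on day 2, and it was open in no MUT, KO, CHIR or XAV library of day 3.

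Anterior neuroectoderm genes, the lineage the culture leads to, were below the background in both directions, with 4 gained and 6 lost of 187 regions (2.14% and 3.21%). Both gained regions at Fezf1, a forebrain factor, lay near its start site and shared a peak with 4.06 and 3.86 on day 3, against 3.38 and 3.2 on day 2. The −log10 p of that peak was 15.5 and 13 on day 3, against 15.2 and 9.09 on day 2. Midbrain and hindbrain genes gained 5 and lost 5 of 105 regions (4.76% each), and 4 of the 5 gained ones were at Pax2, a midbrain-hindbrain boundary factor. The region 512 bp upstream of the Pax2 start site had 4.2 and 3.87 on day 3, against 2.92 and 3.21 on day 2. A more distal one, 46953 bp upstream, had 6.92 and 7.33 on day 3, against 2.63 and no peak on day 2. Egr2, a hindbrain factor, had in its start region 3.42 and 2.65 on day 3, against 3.6 and 4.33 on day 2. Neuron differentiation genes gained 3 and lost 3 of 94 regions (3.19% each). Near Sox11, a neural progenitor factor, a region open on both days had 12.4 and 11.9 on day 3, against 7.54 and 7.5 on day 2 (limma log2 0.78 ± 0.14 SE, adjusted p = 0.0348).

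Neural crest and surface ectoderm genes gained 9 of 116 regions (7.76%) and lost 3 (2.59%), and 6 of 14 genes had a gained region: Dlx5, Msx2, Tfap2a, Gata3, Grhl3 and Krt18. The lost regions were at Pax7, Sox9 and Tfap2c. The Gata3 region is the threshold case given above, whose folds overlapped between the days. Krt18, a keratin of simple epithelia, had 7.5 and 6.98 on day 3, against 3.07 and 3.4 on day 2 in the region printed above (limma log2 1.25 ± 0.22 SE, adjusted p = 0.0312). That region was open in all 4 MUT and KO libraries of day 3, in none of day 2, and in no CHIR or XAV library. The values at Tfap2a, a surface ectoderm factor, were closer, with 3.68 and 3.64 on day 3 against 3.16 and 3.16 on day 2 at the start site. At the strongest Msx2 region, near a homeobox gene of the neural plate border, the days almost met, with 5.19 and 4.5 on day 3 against 3.95 and 4.46 on day 2. Dlx5, another homeobox gene, gained 2 of 5 regions, the strongest with 3.55 and 3.61 on day 3, against 2.97 and 3.03 on day 2. Its −log10 p was 15.6 and 14.2 on day 3, against 15.5 and 10.6 on day 2. In WT70 the call thus came from the rank, 40796 on day 3 and 57717 on day 2.

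Primitive streak genes gained 2 and lost 5 of 97 regions (2.06% and 5.15%), definitive endoderm genes gained 2 and lost 3 of 58 (3.45% and 5.17%), and mesoderm genes gained 3 and lost 4 of 98 (3.06% and 4.08%). The lost regions of the streak list were at Eomes, Fgf17, Mesp1, T and Wnt3a. These were chosen for naming after their values were seen. The T region, upstream of the Brachyury gene, had 3.24 and 3.47 on day 3, against 4.53 and 5.0 on day 2. The Wnt3a region had no peak and 2.9 on day 3, against 5.34 and 6.82 on day 2. The lost share of streak genes was near that of all genes. Gata4, an endoderm factor, had a gained intronic region near its start site with 5.08 and 4.68 on day 3, against 3.3 and 4.1 on day 2, from a peak with its summit elsewhere. Nkx2-5, a cardiac factor, had a lost region near its start site with 4.01 and 3.58 on day 3, against 4.78 and 7.05 on day 2.

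Among lists for other cells, fibroblast genes gained 5 of 42 regions (11.9%) and lost 2 (4.76%), with gained regions at Col1a1, Col3a1, Fbn1 and Postn. The stronger of the 2 at Col1a1, a collagen gene, printed above with its AP-1 match, had 7.55 and 8.43 on day 3, against 5.12 and 5.58 on day 2. The start site of Fn1, fibronectin, had no peak and 2.33 on day 3, against 8.12 and 11.1 on day 2. The ESCs had been on feeder fibroblasts before plating, the number of fibroblast genes with an open promoter was the same in all 4 libraries, and the part of feeders in these regions was not tested. Extraembryonic endoderm genes lost 5 of 42 regions (11.9%) and gained 2 (4.76%), with 2 of the lost ones at Sparc and 1 at the start site of Afp, alpha-fetoprotein, with 5.19 and 5.33 on day 3, against 8.11 and 9.18 on day 2. Blood and endothelium genes gained 4 and lost 3 of 47 (8.51% and 6.38%), with 2 of 3 gained regions of Runx1, a blood regulator, from 1 peak. The start site of Spi1 (PU.1, a myeloid factor) had 5.96 and 6.99 on day 3, against 4.57 and 4.94 on day 2. Trophoblast genes gained 1 and lost 2 of 37 (2.7% and 5.41%), and housekeeping genes gained 1 and lost 3 of 60 (1.67% and 5%). Near the housekeeping gene Ywhaz an intronic region had 5.52 and 4.69 on day 3, against 10.4 and 13 on day 2 (limma log2 −1.09 ± 0.17 SE, adjusted p = 0.0257). In 12 marker lists of an embryo atlas the gained share ran from 1.29% (primordial germ cells, 5 of 387) to 6.42% (non-neural ectoderm, 21 of 327), and the lost share from 3.49% (visceral endoderm) to 5.68% (primordial germ cells, 22 of 387). The atlas epiblast list lost 19 of 382 regions (4.97%) and gained 13 (3.4%), near the shares of all genes. The larger lost shares of the naive, core and formative lists above were thus not seen in that list.

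**Figure D4:**
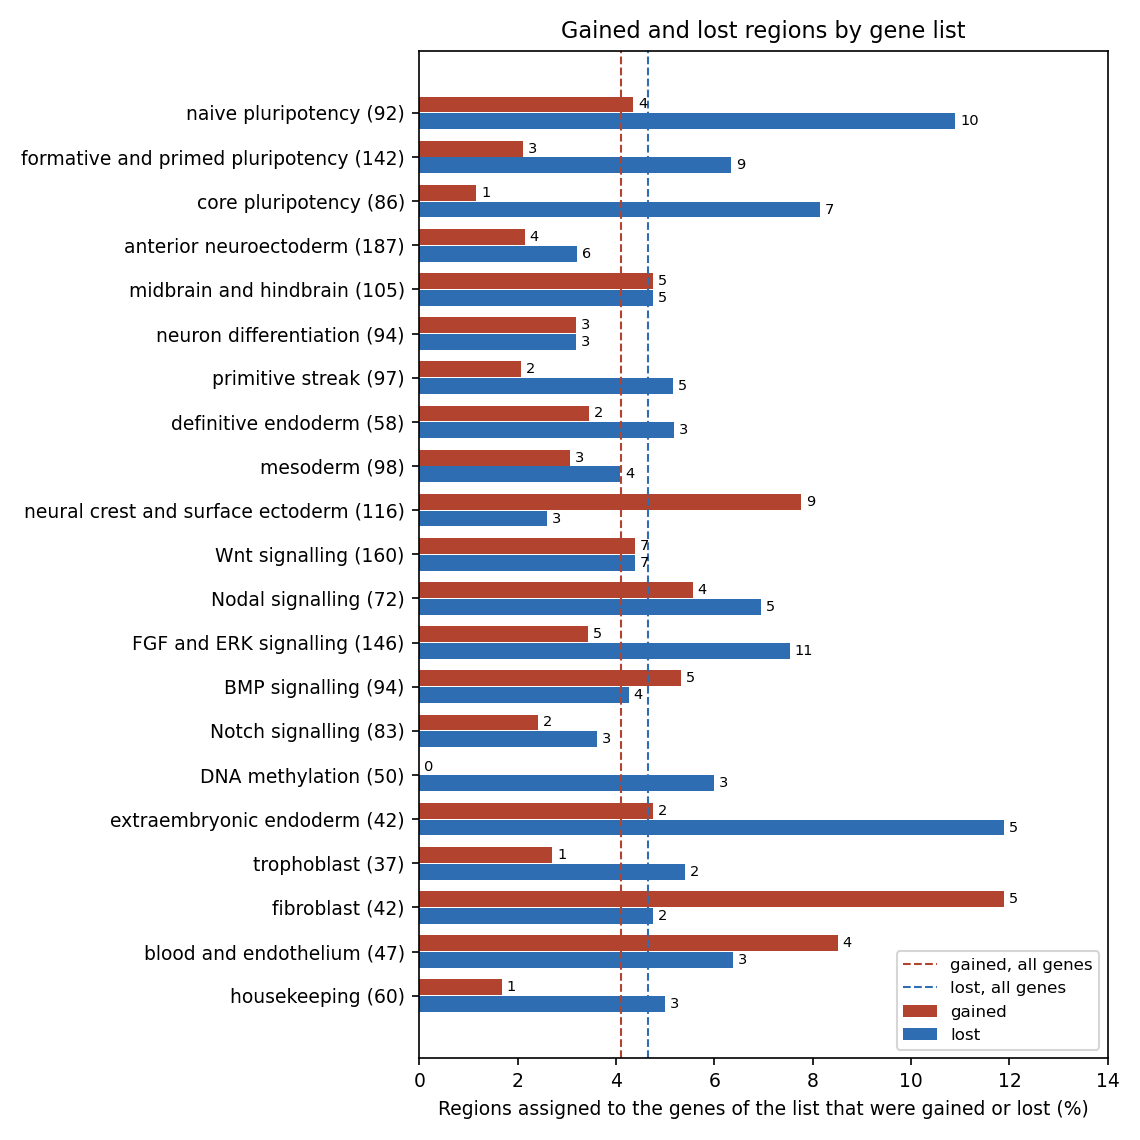
Share of the regions assigned to each gene list that were gained or lost (horizontal axis, %), with the number of regions called beside each bar and the number of regions in brackets after the list. Dashed lines are the shares over all genes, 4.1% gained and 4.65% lost.

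**Figure D5:**
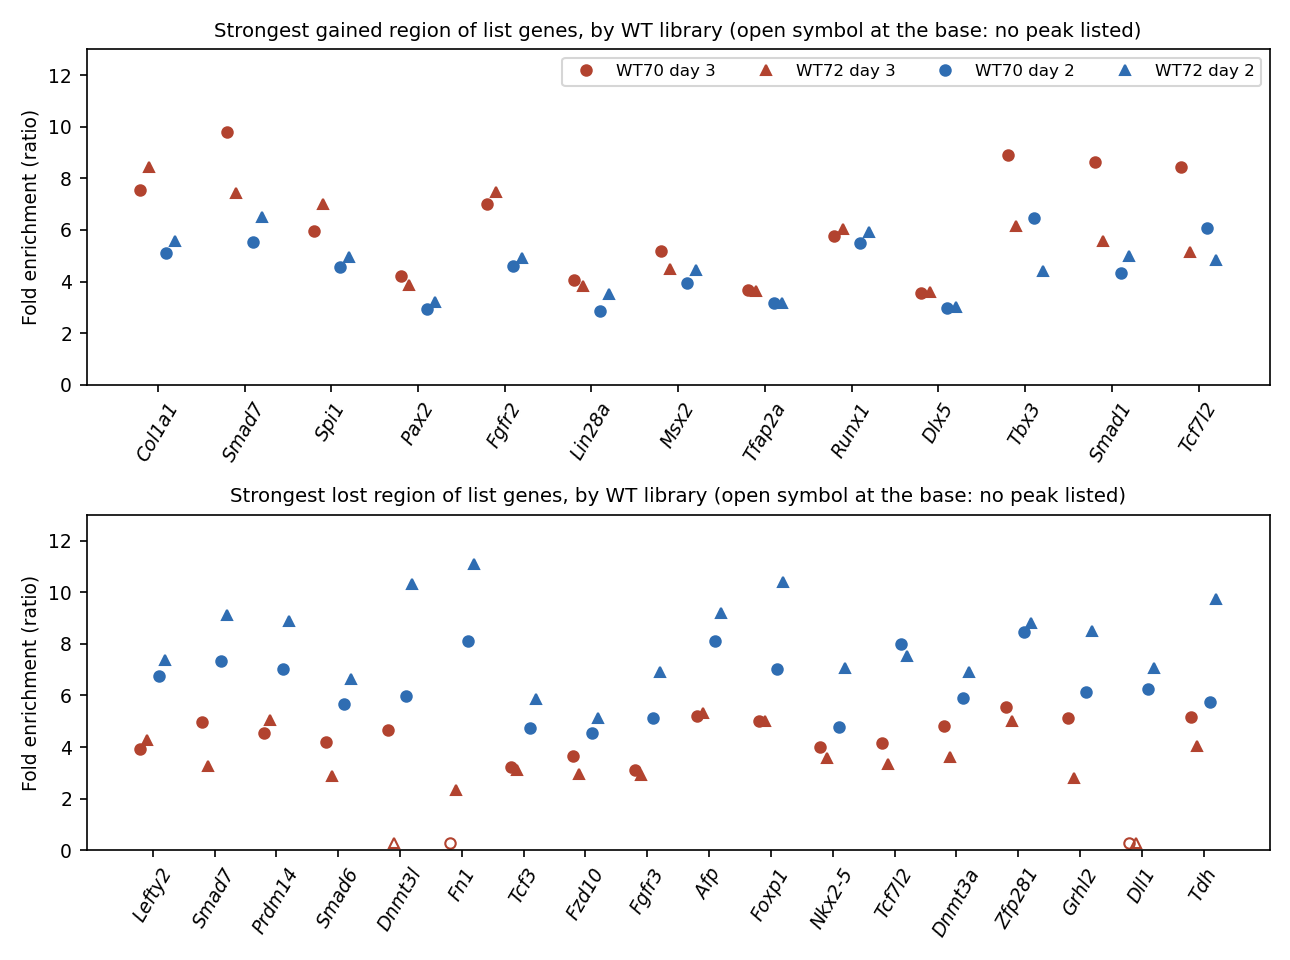
Fold enrichment (vertical axis, ratio to local background) of the strongest gained (top) and lost (bottom) region of list genes named by the rule, by library. Circles are WT70 and triangles WT72, red day 3 and blue day 2, and open symbols at the base mark libraries with no deposited peak. Prdm14 stands at 4.56 and 5.05 on day 3 and at 7.02 and 8.87 on day 2.

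Over all genes, 42 had 3 or more gained regions and 44 had 3 or more lost ones. Most gained regions lay at Tenm4 (6 of 29), a teneurin cell surface protein, followed by Itgb6 (5 of 6), Pdzd2 (5 of 22) and Jazf1 (5 of 14). Rgs3, Cdk14, Pitpnm2, Pax2, Zmynd8 and Mycn had 4 each. Lost regions lay at Tenm4 (3), Pdzd2 (2), Zmynd8 (2) and Pax2 (1) too, and at none of the other 6. At Itgb6, the integrin β6 subunit of epithelia, all 5 gained regions lay within an interval of introns and upstream sequence, and all 5 were open in 1 or 2 MUT libraries of day 3, in 0 to 2 KO and 0 to 2 CHIR libraries, in no XAV library and in no MUT or KO library of day 2. The strongest had 8.79 and 8.31 on day 3, against 5.45 and 5.65 on day 2. At Tenm4 the strongest had 10.7 and 9.67 on day 3, against 5.71 and 5.44 on day 2, while 3 other genes of the 10 (Zmynd8, Pax2 and Mycn) had regions whose summit lay outside.

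Most lost regions lay at Dst, Pipox, Col26a1, Dmrt1, Rps6ka1 and Morc1 (4 each), followed by Tspan5, Rab27a, Tgif1 and Hspg2 (3 each). Dst, Pipox, Dmrt1 and Tgif1 also had 1 gained region each. Morc1 and Dmrt1 act in the male germ line in mice. A region at the start of a Morc1 transcript had 3.12 and 4.0 on day 3, against 8.84 and 7.69 on day 2, and was open in all 4 MUT and KO libraries of day 2 and in none of the untreated ones of day 3, but in both CHIR and both XAV libraries of day 3. Tgif1, a corepressor of Nodal and retinoid signalling, had a region with 4.15 and 4.0 on day 3, against 9.0 and 11.3 on day 2. At Rab27a, a vesicle trafficking GTPase, 1 exonic region had no peak in either library on day 3, against 6.23 and 6.91 on day 2. At Col26a1 and Pipox some regions shared a peak, so these counts are of regions and not of separate elements.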

How the data were processed

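ATAC-seq (omni-ATAC) libraries were grouped by the labels. The ENCODE ATAC-seq pipeline was run by the authors on mm10, and 1 peak list per library was deposited. Aligner and caller versions were not given in the sources used here. DiffBind 3.0.15, HOMER 2 and deepTools 3.4.3 are named in the submitters' processing notes. Each deposited peak carries a fold enrichment (a ratio to local background) and the authors' −log10 p and −log10 q, down to a −log10 p of 2. Read depth is unknown, so no interval that needs it is given. The authors' lists of regions that differed between KO and WT on day 3 were not used.

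Peaks that shared start and end were merged, and 50000 intervals per library were kept by −log10 p. Summits ± 150 bp were merged over libraries, and those of at least 2 libraries made the consensus. Open meant an overlap of 1 bp. Positions used GENCODE M21 on GRCm38.p6, and each region was assigned to the closest TSS of a protein-coding gene, up to 100 kb away. Intron and exon labels refer to any annotated gene, which need not be the assigned one. limma 3.58.1 (R 4.3.3) was run on quantile-scaled log2 of the highest fold enrichment per region. Exact permutation tests were two-sided, with Benjamini-Hochberg adjustment over 28 motif features or both region sets. Scripts were tested on simulated data.

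The days pair by cell line, as the labels give the line. The deviations of the 2 WT70 libraries from their day means correlated at 0.094. Paired values stand beside the limma counts and the tests over libraries. The limma adjusted p-values of single regions are from the fit without line, and 0 regions passed with line as a term. The p-values measure the spread between these lines and libraries.

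Members and lists were chosen with earlier results of these data known. Named were list genes with 2 or more gained or lost regions or one within 1 kb of the TSS, list genes past the limma threshold, the 10 genes with most regions in each direction, the 5 strongest regions in each direction by the lower −log10 p, and the 5 largest limma changes in each direction. Other named genes were chosen after their values were seen. Alternatives were other numbers of intervals kept, a −log10 q minimum, ranking by fold, overlap of 50% of the region, a WT consensus, no peak of any rank on the other day, leaving out a library, pairing by line, other scaling, other regions tested and a narrower motif window. A summit inside the region was added after seeing the data.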

Additional observations from a re-analysis of the deposited data

Results flagged for a closer look

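Of 60 groups of libraries examined, 4 had a library far from the others, and about 1 in 20 would by chance. All 4 were motif shares of kept intervals. TCF/LEF stood at 3.74% in KO1 on day 2, against 3.45% to 3.56% in the other 5 libraries of that day. The TAATTA homeobox core stood at 4% in KO1 on day 3, against 3.5% to 3.64%. KLF stood at 18.3% in KO1 on day 3, against 18.6% to 18.7%. ESRRB stood at 0.434% in CM59 on day 3, against 0.38% to 0.396%. None of these concerns a WT library or 1 of the 5 motifs that passed the test.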

How the results depend on the processing

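The gained and lost counts followed the number of intervals kept. They were 1736 and 1947 with 30000 kept and 4312 and 4935 with 75000 kept. With every peak of −log10 q of at least 2 they were 3038 and 15467, and the mixed pairings then gave 6515, 1080, 1598 and 3318, so that gained regions no longer stood above all of them. With no deposited peak of any rank on the other day they were 26 and 74. Ranking by fold enrichment gave 3205 and 3540, an overlap of 50% of the region 2762 and 3209, a consensus of the WT libraries 2690 and 3064, and a summit inside the region, chosen after seeing the data, 2692 and 3070. Leaving out 1 WT library gave 4202 to 5832 gained and 4912 to 5921 lost regions, since fewer libraries then had to meet the rule. Under the replicate block by line the counts were the same, 2786 and 3188, by construction.

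The occupancy differences in MUT and KO kept their sign under every alternative run. With −log10 q of at least 2 they were 23.4 and −43.1 points (exact adjusted p = 0.143 and 0.0571). With the replicate block they were 35 and −46.8 points (exact sign-flip p = 0.125). In MUT alone they were 41 and −46.2 points and in KO alone 29 and −47.4 points, where the smallest exact p is 0.333. Leaving out 1 WT library gave 23.8 to 29.8 and −38.1 to −36.8 points, and regions with no peak on the other day gave 26 and −70.6 points.

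The limma counts of higher and lower regions were 0 and 0 with the replicate block, 245 and 342 with median centring (the median over all regions was then 0.04 on the log2 scale, against 0.028), and 17 and 35 among regions open in all 4 libraries. Leaving out 1 library gave 0 to 552 higher and 0 to 1611 lower, with 0 and 0 without either day 2 library, 552 and 1611 without WT70 day 3, and 130 and 417 without WT72 day 3. With 1 library left in a group, limma assumes that it varies like the other group. Of 28 motif features, 11 passed with 30000 kept and 11 with 100 bp on either side, and those included all 5 of the main setting. KLF passed only with 100 bp (−0.386 points, exact adjusted p = 0.0121). With 75000 kept 5 passed, 4 of them the same, and CTCF did not (0.186 points, exact adjusted p = 0.198). With the replicate block 0 passed. The differences for AP-1 (2.17), TEAD (0.789), MEIS/TGIF (0.947), CTCF (0.568) and NFY (−0.394 points) then had an exact adjusted p of 0.0972.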
